A study of Sus scrofa with 64 samples.

Results

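The adrenal medulla was compared with the adrenal cortex within each of 4 pigs, on 8 of the 64 arrays of a survey of 16 porcine tissues. The pigs were a Large White male (LWM, 38.8 kg) and a Large White female (LWF, 36.2 kg) aged 87 days, and an Iberian female (IBF, 32.8 kg) and an Iberian male (IBM, 25.4 kg) aged 89 days. They received no experimental treatment, shared housing and feed, were killed with a barbiturate and were sampled at necropsy, where the medulla was cut from the cortex by hand with a knife. Each breed and sex combination was thus a single animal, and each array held 1 piece of bulk tissue. Every array of 4 medulla and 4 cortex samples was used, across 23935 pig probes, of which 9774 named 1 of 6567 genes. Levels are given as log2 of the RMA signal (robust multi-array average, which corrects background, normalises the arrays together and summarises the oligonucleotides of a probe set), so that a difference of 1 is a doubling of signal. Differences are medulla minus cortex of the same pig. Where a gene had several probes, the brightest on the 8 arrays was taken.

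The adrenal gland joins a pair of endocrine tissues of different origin. Chromaffin cells of the medulla come from the neural crest, make catecholamines from tyrosine, store them in dense core granules with granins and peptides, and release them by regulated exocytosis when the splanchnic nerve fires. The cells of the cortex derive from mesoderm and turn cholesterol into aldosterone, glucocorticoids and androgens. The cortex drains toward the medulla, and its glucocorticoids are known to maintain the last enzyme of adrenaline synthesis in chromaffin cells.

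PNMT and DDC of catecholamine synthesis, 7 of 9 granin and prohormone genes and the peptide galanin were higher in the medulla sample of all 4 pigs, while other genes of the chromaffin lists had mixed signs or small differences. The main genes of steroid synthesis differed little, with intervals that held 0. The samples labelled cortex held PNMT far above the other tissues, and the samples labelled medulla held STAR and CYP11A1 far above them, so neither label was free of the other zone's markers. In bulk samples, fewer cells of a type and less RNA per cell cannot be told apart. The pair of samples of LWF differed least, and stands apart in what follows.

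Phenylethanolamine N-methyltransferase (PNMT), which turns noradrenaline into adrenaline, was at 9.90 in the cortex of LWM, 10.68 in LWF, 8.08 in IBF and 9.09 in IBM, and at 11.66, 11.26, 10.74 and 11.73 in the medulla of the same pigs. The medulla and cortex ranges did not overlap, but the cortex of LWF was just under the medulla of IBF. Across the other 56 arrays PNMT lay between 4.03 and 6.32, so every cortex sample was above every array of the 14 other tissues. The mean difference was 1.91 (95% interval 1.19 to 2.63, n = 4 pigs, 3.76-fold), with an adjusted p of 0.0737 in the paired limma fit. Aromatic L-amino acid decarboxylase (DDC), which makes dopamine, was at 9.17, 9.59, 7.23 and 8.58 in the cortex of LWM, LWF, IBF and IBM and at 10.97, 10.35, 9.85 and 11.08 in their medulla. It showed the same order of samples, and its mean difference was 1.92 (1.28 to 2.56, adjusted p = 0.0679).

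That adjusted p was the lowest reached by any probe. In the paired fit 0 of 23935 probes passed an adjusted p of 0.05 in either direction (0% higher and 0% lower in medulla), while at an unadjusted p under 0.05 there were 1579 higher and 936 lower. The direction of the small differences depended on scaling, since after centring each array on its median these counts were 1268 and 1569. The count of calls rested on LWF: without that pig the same fit called 681 probes higher and 57 lower. Without LWM, IBF or IBM instead, 0 probes passed in either direction. LWF had the smallest differences, so calls without it describe these samples and are no separate support for any gene. A limma fit to all 64 arrays with tissue, breed and sex as effects called 239 higher and 1 lower. The lower probe was 1 of EMILIN2, a matrix glycoprotein, at -0.55, with -0.0004 in IBM. It was not the brightest probe of its gene, so it does not enter the counts of named genes below. Limma with an intensity trend and a robust prior called 168 and 9. Of the 239, 229 (95.8%) were also among the 681, of which they made 33.6%, and 66 (27.6%) were among the 168, of which they made 39.3%. These fits share adrenal arrays, so their overlap is no separate support. The fit over 64 arrays takes its spread from all 16 tissues, including those in which chromaffin genes are hardly expressed. Because the paired fit made no call, genes are described below by their differences, intervals and arrangement over the 4 pigs, and calls of the other fits are named as such.

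Of the 6567 named genes, 556 were higher in medulla in all 4 pigs (8.47%) and 791 were lower in all 4 (12%). After the arrays were centred, these became 432 and 1189. The counts of list genes given below are to be read beside the shares of 8.47% and 12%. Large differences lay on 1 side: 67 genes (1.02%) were higher in all 4 pigs by a mean of 1 or more, and 0 were lower by as much. The fit over 64 arrays called 65 named genes higher (0.99%) and 0 lower (0%), and the paired fit without LWF 188 higher (2.86%) and 22 lower (0.335%).

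The secretory granule held many of the larger differences. The granin and prohormone list held 9 measured genes, of which 7 were higher in all 4 pigs, all 7 by a mean above 1, and 0 were lower in all 4. The median of the list was 1.63, against -0.03 over all named genes, and it was 1.93 in LWM, 0.35 in LWF, 2.05 in IBF and 2.42 in IBM. Chromogranin A (CHGA), the granin that drives granule formation, was at 6.81, 7.45, 5.72 and 6.37 in cortex and 8.76, 7.63, 7.51 and 8.34 in medulla (LWM, LWF, IBF, IBM). Its samples separated narrowly, as the cortex of LWF was just under the medulla of IBF, and the difference was 1.47 (0.82 to 2.12, adjusted p = 0.0837). Chromogranin B (CHGB) was the brightest of the group, at 11.77, 12.06, 9.80 and 11.22 in cortex and 12.84, 12.43, 12.15 and 12.79 in medulla. It differed by 1.34 (0.72 to 1.97), most in IBF (2.35) and least in LWF (0.37).

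Secretogranin II (SCG2), the precursor of secretoneurin, was at 9.16, 9.90, 7.28 and 8.09 in cortex and 11.09, 10.25, 10.25 and 10.83 in medulla, a difference of 2.0 (1.13 to 2.86, 3.99-fold, adjusted p = 0.0807). Secretogranin III (SCG3), which binds chromogranin A to the granule membrane, differed by 1.95 (1.10 to 2.80), with 2.50 in LWM, 2.44 in IBF and 2.65 in IBM but 0.22 in LWF. The further genes named from the lists in this and the next paragraphs were chosen after their values were seen. Prohormone convertase 1 (PCSK1) differed by 1.88, its inhibitor PCSK1N by 1.63, and SCG5, the chaperone of convertase 2, by 1.75. Convertase 2 itself (PCSK2) was at -0.10 (-0.34 to 0.14) and the peptide amidating enzyme PAM at 0.23 (-0.01 to 0.47), both of mixed sign over the pigs. In the fit over 64 arrays 6 of the 9 passed, the exception among the 7 being PCSK1 (adjusted p = 0.154), and in the paired fit without LWF all 7 passed.

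**Figure D1:**
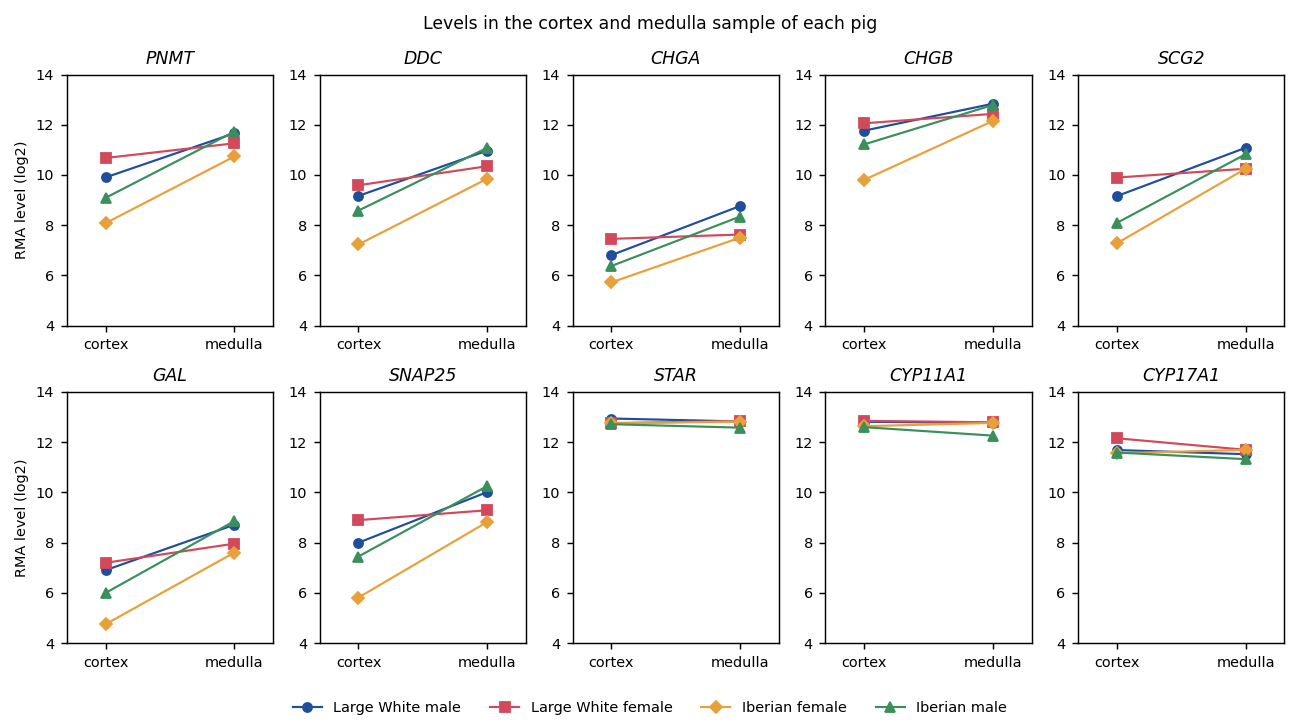
RMA level (log2) of 10 genes in the cortex and the medulla sample of each pig, 1 line per pig. The lines of the 7 chromaffin genes rise toward medulla, least in the Large White female, whose PNMT was at 10.68 in cortex and 11.26 in medulla, while those of STAR, CYP11A1 and CYP17A1 run nearly level between 11.3 and 12.9.

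Of the 8 measured genes of catecholamine synthesis and handling, 3 were higher in all 4 pigs (PNMT, DDC and CYB561) and 1 was lower in all 4 (SPR), and the median was 0.15. CYB561, the cytochrome that carries electrons for ascorbate into the granule, differed by 0.32 (0.06 to 0.59). A second, dimmer probe of it gave 0.36 with mixed signs. Sepiapterin reductase (SPR), which makes the pterin cofactor of tyrosine hydroxylase in many tissues, was at -0.13 (-0.33 to 0.08). The other cofactor enzymes PTS and QDPR and the amine oxidases MAOA and MAOB had mixed signs and means between -0.13 and 0.27. Tyrosine hydroxylase, dopamine beta-hydroxylase and the vesicular monoamine transporters were not analysed here. The fit over 64 arrays called PNMT and DDC (adjusted p = 3.7e-06 and 0.000632) and no other gene of the list.

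Among the peptides, galanin (GAL) and adrenomedullin (ADM) differed most. Galanin was at 6.90, 7.20, 4.75 and 5.998 in cortex and 8.71, 7.96, 7.61 and 8.86 in medulla (LWM, LWF, IBF, IBM), so that no cortex sample reached the lowest medulla sample. The difference was 2.07 (1.33 to 2.81, 4.20-fold, adjusted p = 0.0734). Outside the adrenal gland galanin did not exceed 6.35 on any of the 56 arrays. Adrenomedullin, a vasodilator first purified from a tumour of chromaffin cells, differed by 1.56 (1.09 to 2.03), with no overlap of the groups. CARTPT, the precursor of the CART peptides, was higher in all 4 pigs by 0.75 (0.27 to 1.24) but varied between pigs, from 4.65 in the cortex of LWM to 7.30 in the medulla of IBM. The other 8 of the 11 genes, among them NPY, SST and PDYN, had mean differences below 0 and lay between 2.66 and 5.54 in every adrenal sample. The list median was -0.15.

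For exocytosis, 5 of 8 genes were higher in all 4 pigs and 0 were lower in all 4, with a median of 0.44. SNAP25, a SNARE of the plasma membrane, was at 7.998, 8.90, 5.81 and 7.45 in cortex and 10.01, 9.29, 8.83 and 10.25 in medulla. The groups overlapped by 1 sample, as the cortex of LWF was above the medulla of IBF, although the difference within pigs was 2.06 (1.19 to 2.93, adjusted p = 0.0768). The calcium sensor synaptotagmin 1 (SYT1) differed by 1.75 (1.02 to 2.47). The vesicle SNARE VAMP2 (0.42), RAB3A, a GTPase of secretory vesicles (0.60), and synapsin II (SYN2, 0.45) were also higher in all 4 pigs, while SYT5, SYN1 and CADPS2 had mixed signs. SNAP25 and SYT1 were the members called over 64 arrays.

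Of the 4 measured sympathoadrenal transcription factors, GATA3, GATA2 and TFAP2B were higher in all 4 pigs and HAND1 was not (-0.07). GATA3, which chromaffin precursors need, was at 5.94 ± 0.82 in cortex and 7.72 ± 0.66 in medulla (SD, n = 4 each) and differed by 1.78 (1.25 to 2.31, adjusted p = 0.0679). It was among the probes called with an intensity trend and a robust prior (adjusted p = 0.0478), as were GATA2 and TFAP2B. Of the 4 GATA3 probes, 3 were higher in all 4 pigs and the fourth had mixed signs. A second, dimmer GATA2 probe gave 0.08 with mixed signs. Among 7 receptors and ion channels 2 were higher in all 4 pigs, CHRNB2, a nicotinic receptor subunit, by 0.16, and CACNA2D1, an auxiliary subunit of voltage-gated calcium channels, by 0.42 (0.14 to 0.71, adjusted p = 0.251). A second, dimmer CHRNB2 probe gave 0.28 with mixed signs. None of these 7 genes was called in the fit over 64 arrays.

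The neuronal list was less even. Of its 9 genes, 4 were higher in all 4 pigs, MAP2 by 1.25, ELAVL4 by 0.62, UCHL1 by 0.54 and STMN2 by 0.22, and 0 were lower in all 4. MAP2, a microtubule protein of neurons, was at 7.28, 7.94, 6.57 and 6.94 in cortex and 8.84, 8.08, 7.72 and 9.09 in medulla, and passed over 64 arrays (adjusted p = 0.000331). STMN2, a stathmin of growing neurites, was by contrast nearly as bright in cortex (9.57 to 10.61) as in medulla (9.82 to 10.70). In the other 56 arrays STMN2 had a median of 4.22. A second, dimmer STMN2 probe gave a difference of 0.09 with mixed signs.

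The steroid genes showed no such difference. Steroidogenic acute regulatory protein (STAR), which carries cholesterol into the mitochondrion, was at 12.94, 12.76, 12.75 and 12.72 in cortex and 12.83, 12.84, 12.82 and 12.58 in medulla (LWM, LWF, IBF, IBM). The samples overlapped throughout, and the interval of the difference, -0.25 to 0.20, held 0. The side-chain cleavage enzyme CYP11A1, the first step of steroid synthesis, differed by -0.08 (-0.32 to 0.17). The 17α-hydroxylase CYP17A1 was at 11.69, 12.16, 11.56 and 11.59 in cortex and 11.52, 11.70, 11.69 and 11.32 in medulla, a difference of -0.19 (-0.46 to 0.08). HSD3B1, the 3β-hydroxysteroid dehydrogenase, differed by -0.14 (-0.43 to 0.15). Both samples of every pig were far above the other tissues for STAR, whose highest level elsewhere was 6.14, and for CYP11A1, at most 5.11 elsewhere.

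Over the 12 steroid genes the median difference was -0.05, against -0.03 for all named genes, with -0.07 in LWM, -0.06 in LWF, 0.09 in IBF and -0.13 in IBM. Only HSD11B2, which inactivates cortisol, was higher in all 4 pigs, by 0.11 (-0.12 to 0.34), and 0 genes were lower in all 4. The largest difference was that of CYB5A, the cytochrome b5 that aids the lyase step of CYP17A1, at 0.27 (-0.01 to 0.55), with -0.12 in LWF against 0.35 to 0.43 in the others. None of the 12 passed in the paired fit, at an unadjusted p under 0.05, over 64 arrays or without LWF. The 21-hydroxylase and 11β-hydroxylase genes were not analysed here.

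The regulators of the cortex lay somewhat below 0. Of 13 cortex transcription factors and hormone receptors, 11 had a mean difference below 0, where 57.5% of all named genes did, and the median was -0.19. After centring, 12 of 13 were below 0, against 68.8% of all named genes. NR5A1 (steroidogenic factor 1) was at 10.06, 10.13, 9.84 and 9.80 in cortex and 9.63, 10.14, 9.56 and 9.45 in medulla, a difference of -0.26 (-0.51 to -0.02, adjusted p = 0.434). It was lower in the medulla of the 3 pigs other than LWF, and a second, dimmer probe of it gave 0.20. The corticotropin receptor MC2R differed by -0.17 (-0.41 to 0.07), and its accessory protein MRAP by 0.00 (-0.21 to 0.22). The MC2R probe was no brighter in cortex (mean 6.82) and medulla (6.66) than in blood (6.83), and at most 5.61 on average elsewhere. A second MC2R probe was dimmer, at 3.47. Members lower in all 4 pigs were NR0B1 (DAX-1, a repressor of NR5A1) at -0.36 and TCF21, a factor of the capsule and its stromal progenitors, at -0.44 (-0.75 to -0.12, adjusted p = 0.283). No member passed in any of the 3 fits that made calls.

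**Figure D2:**
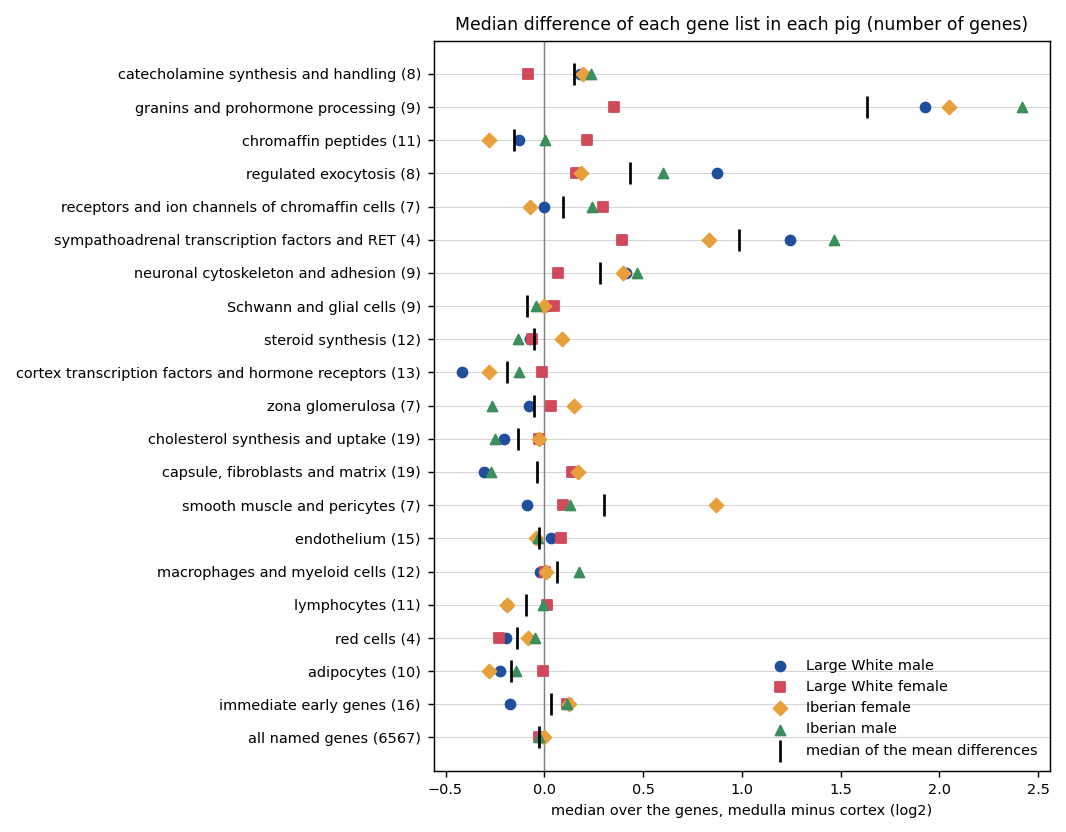
Median difference, medulla minus cortex (log2), over the measured genes of 20 lists and over all named genes, for each of the 4 pigs (symbols) and for the mean of the pigs (black bar). The granin list lies between 1.93 and 2.42 in 3 pigs and at 0.35 in the Large White female, and the steroid list between -0.13 and 0.09 in all 4.

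Of the 7 genes of the zona glomerulosa, the outer zone that makes aldosterone, 1 was higher in all 4 pigs and 0 were lower in all 4. The angiotensin receptor AGTR1 differed by -0.04 (-0.28 to 0.20) and the potassium channel KCNJ5 by -0.27 (-0.61 to 0.08). The exception was HOPX, a homeodomain protein without DNA binding, which was at 6.08 ± 0.43 in cortex and 6.98 ± 0.22 in medulla with no overlap, a difference of 0.89 (0.43 to 1.35, adjusted p = 0.129, and 0.0114 without LWF). HOPX was higher in the adenohypophysis (9.63), the pineal gland (9.56), the hypothalamus (9.49) and the liver (9.27).

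Of 19 genes of cholesterol synthesis and uptake, 17 (89.5%) had a mean below 0 on the deposited, the quantile-normalised and the centred values. Most named genes were also below 0, at 57.5% on the deposited, 64.4% on the quantile-normalised and 68.8% on the centred values. The differences of the list were small, with a median of -0.14 against -0.03 over all named genes on the deposited values. Lower in all 4 pigs were HMGCS1, the synthase ahead of HMG-CoA reductase (-0.25), FDPS (-0.24), CYP51 (-0.18), HSD17B7 (-0.18) and the hormone-sensitive lipase LIPE (-0.40). The scavenger receptor SCARB1, which takes up cholesterol esters from lipoproteins, was bright in all samples (11.76 to 12.19) and differed by -0.12 (-0.37 to 0.12). Against the rest stood apolipoprotein E (APOE), higher in all 4 pigs by 0.63 (0.35 to 0.90, adjusted p = 0.0812), and the mitochondrial protein TSPO, by 0.37 (0.14 to 0.61). A second APOE probe, dimmer, gave -0.08 with mixed signs. APOE was called with the trend and robust prior (adjusted p = 0.0147) and without LWF (0.019), but was at 0.687 over 64 arrays.

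KCNIP4, a calcium-binding subunit of A-type potassium channels, was at 4.98, 6.30, 4.76 and 4.89 in cortex and 8.34, 6.91, 7.31 and 8.87 in medulla (LWM, LWF, IBF, IBM). The groups did not overlap, and its difference of 2.63 (1.56 to 3.69, 6.17-fold, adjusted p = 0.0764) was the largest among named genes of the same sign in all pigs. It was followed by the testican SPOCK3 (2.14), RGS5 (2.12), galanin, SNAP25, palmdelphin (PALMD, 2.02), the neuronal leucine-rich repeat protein LRRN3 (2.01), SCG2, SCG3 and clusterin (CLU, 1.95), a secreted chaperone. All 10 had an adjusted p between 0.0679 and 0.0807 in the paired fit, and 9 passed over 64 arrays, the exception being SPOCK3 at 0.082. All 10 passed without LWF.

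Across the 67 genes higher by a mean of 1 or more, the tissue with the highest mean among the other 14 was the olfactory bulb, hypothalamus, pineal gland, adenohypophysis or neurohypophysis for 50 (74.6%), against 23.0% of all named genes. SCG2, for instance, had a mean of 12.60 in the adenohypophysis and 12.02 in the pineal gland, above the 10.60 of the medulla, and SNAP25 of 12.49 in the olfactory bulb. The medulla mean was above that of all 14 other tissues for 9 of the 67 (13.4%, against 5.79% of all named genes), PNMT, GAL, CHGA and RGS5 among them. The 67 were chosen for high levels on the same medulla arrays, which raises this share, so it is only a description. The cortex mean was above all 14 for 4.48% of the 67, against 6.59% of all named genes. RGS5, a regulator of G-protein signalling known as a pericyte marker, was at 11.04 in medulla, 8.92 in cortex and 10.67 in the diaphragm. PALMD was higher in fat and muscle than in medulla, at 9.32 in back fat.

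**Figure D3:**
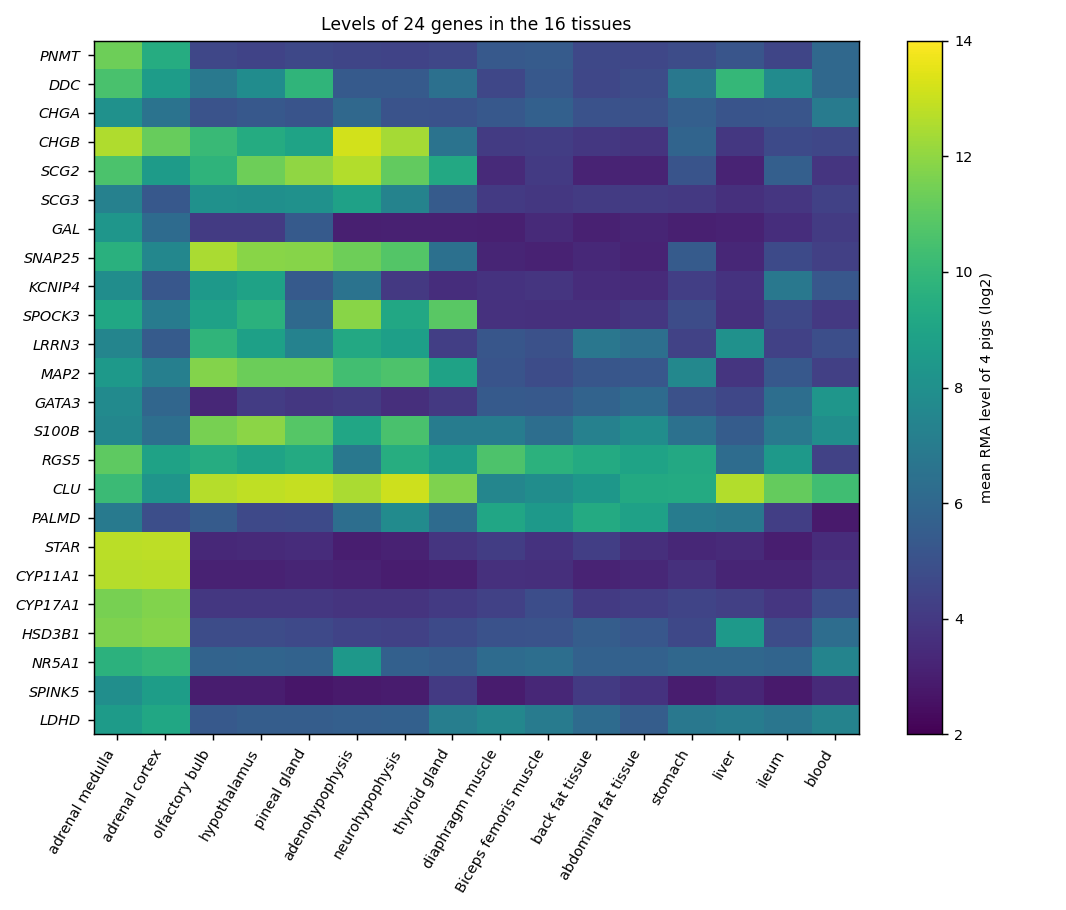
Mean RMA level (log2, 4 pigs) of 24 genes in the 16 tissues, with the adrenal samples at the left. PNMT is bright in medulla (11.35) and cortex (9.44) and at most 6.06 on average elsewhere. CHGB, SCG2 and SNAP25 are bright in brain and hypophyses as well. The CHGA probe is dimmer, at 8.06 in medulla, 6.59 in cortex, 6.98 in blood and 6.07 in the adenohypophysis. STAR, CYP11A1 and CYP17A1 are bright in both adrenal samples alone.

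The genes higher in cortex in all 4 pigs differed less, and none by 1. The first 10 were FABP4, DPT, SPINK5, TMBIM1, WFDC2, LDHD, PLA2G1B, POPDC3, CPB1 and BCAT2, with means from -0.81 to -0.53. Lymphoepithelial serine protease inhibitor (SPINK5) was at 10.13, 8.06, 8.03 and 8.51 in cortex and 9.34, 7.25, 7.06 and 8.07 in medulla (LWM, LWF, IBF, IBM), a difference of -0.75 (-1.01 to -0.49, adjusted p = 0.0727) that was as large in LWF as in the rest. The tissues overlapped, and LWM was the brightest pig in both. Outside the adrenal gland SPINK5 stayed at or below 6.65 on all 56 arrays.

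The mitochondrial enzymes D-lactate dehydrogenase (LDHD) and branched-chain aminotransferase 2 (BCAT2) were likewise brighter in the adrenal samples than on average in any other tissue. LDHD was at 9.15, 9.32, 9.22 and 8.99 in cortex and 8.58, 8.80, 8.75 and 8.12 in medulla with no overlap, a difference of -0.61 (-0.85 to -0.36, adjusted p = 0.0764). A second LDHD probe gave -0.59, lower in all 4 pigs. BCAT2 differed by -0.53 (-0.91 to -0.15, adjusted p = 0.289), from -0.10 in LWF to -1.15 in IBM. SPINK5, LDHD and POPDC3, a membrane protein of striated muscle that lay between 2.54 and 3.73 here, were called with the trend and robust prior and without LWF, and TMBIM1 without LWF. None of the 10 passed over 64 arrays. Second probes of WFDC2, a secreted protease inhibitor, and of POPDC3 gave only -0.08 and -0.01.

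FABP4, a fatty acid carrier of adipocytes, and dermatopontin (DPT), a matrix protein, had the largest means toward cortex among genes lower in all 4 pigs. FABP4 was at 6.45, 5.16, 5.77 and 4.63 in cortex and 4.67, 4.57, 5.15 and 4.39 in medulla, and its difference of -0.81 (-1.33 to -0.29) was carried by LWM (-1.79). In back fat its mean was 13.26. Among 10 adipocyte genes 3 were lower in all 4 pigs (FABP4, PPARG and GPD1) and 1 higher (LPL, by 0.35), with ADIPOQ, the defining adipokine, between 3.25 and 3.87 in every adrenal sample. DPT differed by -1.02 in LWM and -1.74 in IBM but by -0.24 in LWF and -0.18 in IBF. The part of fat or capsule in these differences was not tested.

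**Figure D4:**
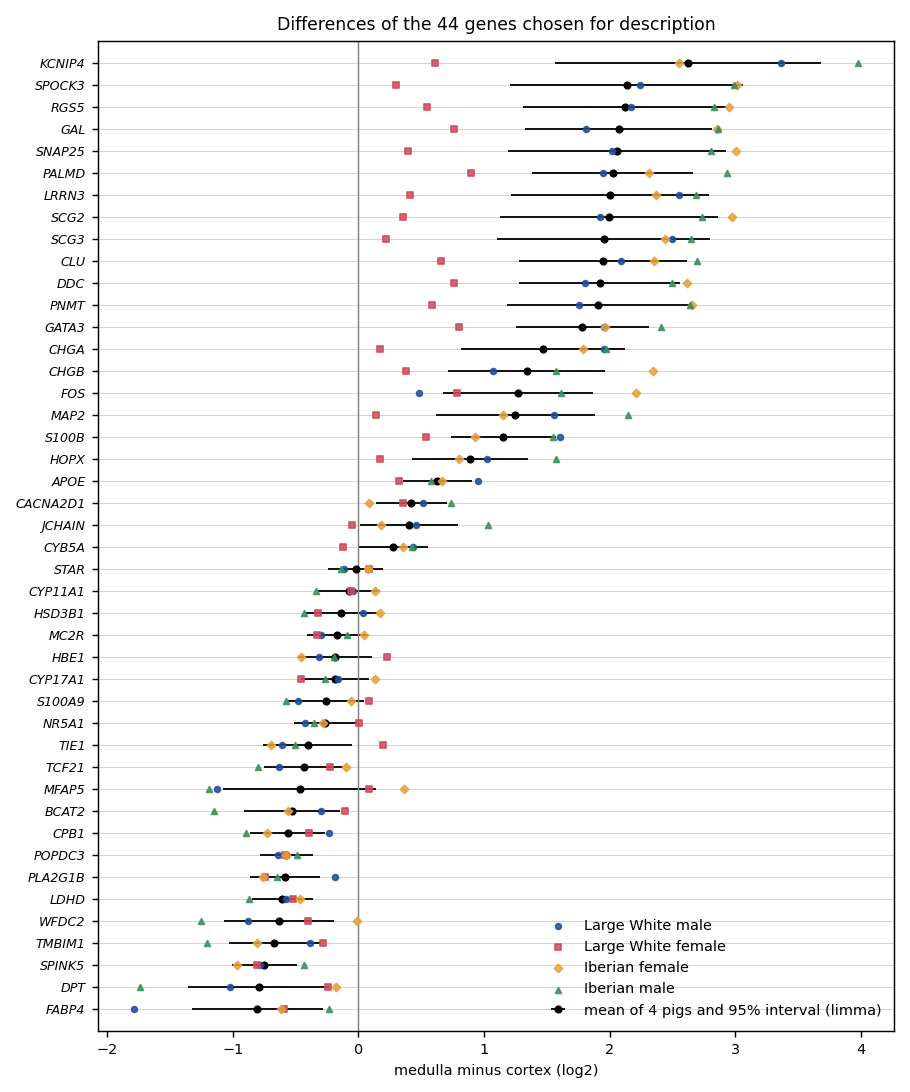
Difference, medulla minus cortex (log2), of the 44 genes chosen for description, with the 4 pigs (coloured symbols) and the mean with its 95% interval from the paired limma fit (black). The Large White female (red squares) lies at the low end of most genes higher in medulla, with 0.61 for KCNIP4 where the mean was 2.63. Exceptions are FOS, lowest in the Large White male (0.48), and CACNA2D1, lowest in the Iberian female (0.08). The Large White female lies among the other pigs for SPINK5, LDHD and POPDC3.

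The differences were of unequal size in the 4 pigs. A difference of 1 or more in either direction was seen for 497 probes in LWM, 379 in IBF and 520 in IBM, but for 52 in LWF. Across all 23935 probes, which are not independent replicates and share the samples of each pig, the differences of LWM correlated with those of IBM at r = 0.62 and of IBF at r = 0.56, and those of IBF with IBM at r = 0.47, while LWF gave -0.08 with LWM, -0.07 with IBF and 0.11 with IBM. Over the 67 genes the median difference was 1.81 in LWM, 1.69 in IBF, 2.10 in IBM and 0.44 in LWF. These genes were chosen from the same differences, so the values are a description.

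By the medians of the 67 genes, LWF had the brightest cortex, while its medulla lay between that of IBF and those of the males. The shares that follow describe genes chosen on these same arrays. Of the 67 genes, 59 (88.1%) had their highest cortex level in LWF, against 36.0% of all named genes, and in 66 (98.5%) the medulla of LWF was below that of LWM, against 46.8%. In cortex the median of the 67 was 6.92 in LWF, 6.17 in LWM, 5.90 in IBM and 5.11 in IBF. In medulla it was 8.12 in LWM, 8.13 in IBM, 7.20 in LWF and 6.83 in IBF. IBF had the lowest cortex level in 62 of the 67 (92.5%, against 24%) and the lowest medulla level in 53 (79.1%, against 27.8%), so that its difference was large although its medulla was the dimmest. Over the same samples STAR spanned 12.58 to 12.94.

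**Figure D5:**
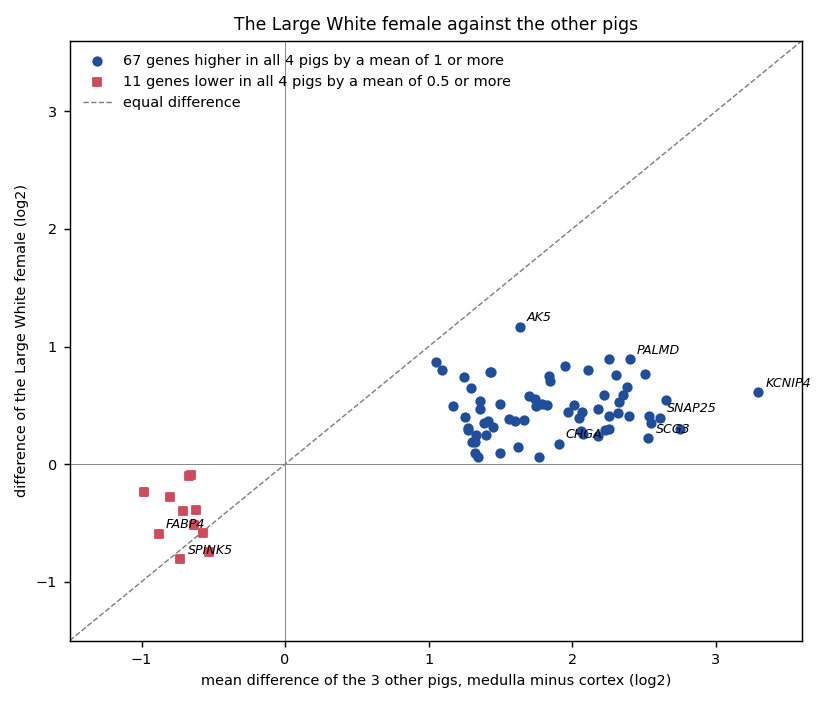
Difference of the Large White female (vertical, log2) against the mean difference of the other 3 pigs (horizontal, log2) for the 67 genes higher in all 4 pigs by a mean of 1 or more and the 11 genes lower in all 4 by 0.5 or more. All 67 lie below the line of equal difference, while of the genes lower in medulla SPINK5 (-0.81 against -0.73) lies close to it and BCAT2 (-0.10 against -0.67) does not.

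The difference was next set between breeds and sexes, with 2 pigs each. In limma interaction fits 0 probes passed for breed and 0 for sex, with 542 and 1221 at an unadjusted p under 0.05. Over 64 arrays 1 probe passed for breed (LEPROTL1) and 0 for sex, and with the trend and robust prior 0 and 2. Without LWM, when LWF alone stood for the Large White breed, 76 probes passed for breed, and without IBF, when LWF alone stood for the females, 177 passed for sex. In each of these fits the lone pig is assumed to vary like the pair it was set against, whose 2 pigs gave the residual spread that limma moderates. MFAP5, a microfibril protein of fibroblasts, was the capsule gene with the largest mean difference, -0.47 (-1.08 to 0.14). It was at 7.40 and 7.10 in the cortex and 6.27 and 5.91 in the medulla of the males LWM and IBM, and at 5.63 and 6.56 in cortex and 5.71 and 6.92 in medulla of the females LWF and IBF. The sex interaction of MFAP5 had an unadjusted p of 0.000285 and an adjusted p of 0.753.

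Markers of other cells were measured in the same samples. Of 9 Schwann and glial genes, S100B and MBP were higher in all 4 pigs, S100B by 1.15 (0.74 to 1.57, adjusted p = 0.0734), while SOX10, the defining factor of the lineage, stood at 4.50 to 5.37 with a mean of -0.27, and GFAP was lower in all 4 by its brightest probe, with mixed signs by 3 dimmer ones. S100B was also high in brain, with a mean of 11.91 in the hypothalamus. Of 15 endothelial, 11 lymphocyte and 19 capsule and matrix genes, 0 were higher or lower in all 4 pigs. Among all named genes 8.47% were higher and 12% lower in all 4. The largest among the endothelial genes was TIE1, an endothelial receptor, at -0.40 (-0.76 to -0.05). TIE1 passed without LWF (adjusted p = 0.0261). Among smooth muscle genes, ACTA2 differed by 1.32 and CNN1 by 1.72 in IBF, while in the other pigs both lay between -0.29 and 0.43, and ACTG2 was lower in all 4 pigs (-0.21) by its brightest probe but at 0.99 with mixed signs by a dimmer one. Among 12 macrophage genes 1 was higher in all 4 by its brightest probe (C1QC, by 0.16), against 8.47% of all named genes. A second, dimmer CD163 probe was higher in all 4 by 0.75. S100A9 was at -0.26 (-0.56 to 0.05). The plasma cell chain JCHAIN was at 0.40 (0.01 to 0.79), and the red cell genes HBB and HBE1 at 0.18 and -0.18. Their part in the differences above was not tested.

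The immediate early genes, which respond to handling within minutes, were brightest on average in LWM. Their mean was 8.13 in its cortex and 8.12 in its medulla. In the other pigs it was 6.71 to 6.83 in cortex and 6.88 to 7.23 in medulla. FOS was at 9.52, 7.39, 7.43 and 8.70 in cortex and 9.9995, 8.18, 9.64 and 10.31 in medulla (LWM, LWF, IBF, IBM), higher in the medulla of all 4 pigs by 1.27 (0.68 to 1.87, adjusted p = 0.0987). JUN (0.52) and EGR1 (0.79) were also higher in all 4, and FOSL2 (-0.34) and NR4A3 (-0.21) lower in all 4. A second, dimmer NR4A3 probe gave -0.08 with mixed signs. Over the 16 genes the median was 0.03. No member of this list passed over 64 arrays, while JUN passed with the trend and robust prior (adjusted p = 0.00823) and FOS without LWF (0.0487). The time from death to freezing of each sample is not in the labels, and its part was not tested.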

How the data were processed

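Total RNA was labelled and hybridised to Affymetrix porcine arrays, 1 array per pig and tissue. The authors read the arrays with GCOS, normalised all arrays together by RMA in libaffy and deposited log2 values. The values lay between 1.78 and 14.47, with medians of 5.40 to 5.49 on the 8 adrenal arrays. Of 24123 probe sets, 188 controls were left out. Names came from GEO's platform annotation: 10069 probes had 1 symbol, 198 several and 13668 none, and 9774 were named after leaving out LOC numbers. Of the probes with 1 symbol, 9961 matched the RefSeq gene table.

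Medulla was compared with cortex by limma 3.58.1 in R 4.3.3 (lmFit and eBayes, animal as a block), with Benjamini-Hochberg adjustment over 23935 probes and a threshold of 0.05. Each pig gave both samples, and deviations from the tissue means correlated within pigs (r = 0.28 to 0.60). The scripts were tested on simulated data. The number of arrays, 4 per tissue, limits the precision. The 44 genes described were PNMT and DDC, the gene with the largest absolute difference in each of 20 lists (208 measured genes), the classical markers that the array named, and the 10 largest mean differences each way among genes of 1 sign in all 4 pigs, each by the probe brightest on the 8 arrays. Alternatives were fits over 64 arrays, no block, each pig left out, other scalings, logarithms, probe selections and an intensity trend with a robust prior. The comparison, genes and lists were chosen with earlier results of these data known.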

Additional observations from a re-analysis of the deposited data

Results flagged for a closer look

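In 108 groups of 4 values, the levels of each described gene in cortex and in medulla and the list medians by pig, 6 held a value far from the others, and chance flags about 1 in 20. In the medulla of IBM, STAR was at 12.58 against 12.82 to 12.84 in the other medulla samples, and CYP11A1 at 12.26 against 12.77 to 12.79. JCHAIN was at 7.20 in the medulla of IBM against 5.90 to 6.11. KCNIP4 was at 6.30 in the cortex of LWF against 4.76 to 4.98 in the other cortex samples. The median difference of the macrophage list was 0.18 in IBM against -0.02 to 0.01, and that of the immediate early genes -0.17 in LWM against 0.11 to 0.12.

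For 4 lists the median had one sign in both pigs of a sex or breed and the other sign in the rest, and none of these differences was tested. The capsule, fibroblast and matrix list had a mean of -0.29 in the 2 males against 0.14 and 0.17 in the females, and the zona glomerulosa list -0.17 in the males against 0.04 and 0.15. The Schwann and glial list had a mean of 0.03 in the Large White pigs against -0.04 and -0.00 in the Iberian pigs, and the endothelial list 0.060 against -0.04 and -0.03.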

How the results depend on the processing

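The counts moved most with LWF and with the source of the spread. Without 1 pig at a time, the probes called higher in medulla ranged from 0 to 681, those higher in cortex from 0 to 57, the list genes higher in medulla from 0 to 24, the probes called between breeds from 0 to 76 and between sexes from 0 to 177. Probes higher in medulla in every pig kept ranged from 2699 to 4773 without 1 pig, against 1991 with all 4, and numbered 1244 among probes above the median level. Without the replicate block, as with the pairing, 0 probes passed in each direction, with 1101 higher and 591 lower at an unadjusted p under 0.05. Over all 64 arrays, 239 were higher and 1 lower with tissue, breed and sex, and 242 and 1 with animal as the replicate block, 17 list genes passed in both, and 1 probe differed between breeds in both. With the trend and robust prior 168 were higher, 9 lower, 7 list genes passed and 2 probes differed between sexes. Adjusted over named probes alone, 1 passed (AK5, adjusted p = 0.0482). Quantile normalisation, centring, natural logarithms, bright probes and means over the probes of a gene gave 0 in each direction, with lowest adjusted p-values of 0.0945, 0.0859, 0.34, 0.0953 and 0.0864. For 44 described genes and 608 values under an alternative, 542 stayed on their side of the threshold, 63 passed it and 3 turned sign: STAR, which ranged from -0.059 to 0.014 without 1 pig, was above 0 without LWM (0.0075) and without IBM (0.014), and CYP11A1, which ranged from -0.15 to 0.0094, was above 0 without IBM. The granin median lay between 1.37 and 2.05 and the steroid median between -0.09 and -0.02 under all alternatives run. The cause of these changes was not tested. Each combination of breed and sex was 1 pig, so the combination and the animal cannot be told apart. The deposited table holds no detection calls, so whether dim probes exceeded background is not known.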

Other observations

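Adenylate kinase 5 (AK5), a kinase of brain chosen here after its values were seen, was at 3.31 ± 0.41 in cortex and 4.82 ± 0.62 in medulla (SD, n = 4 each). It differed by 1.78 in LWM, 1.17 in LWF, 1.27 in IBF and 1.85 in IBM, with the lowest p of the paired fit (adjusted p = 0.0679). The adaptor SHC1, chosen likewise, differed by 1.03, 0.87, 0.88 and 1.25 in the same order, from 6.90 ± 0.14 in cortex to 7.90 ± 0.25 in medulla. Of all 220 probes higher in all 4 pigs by a mean of 1 or more, 141 had no gene name in the annotation used.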
